A study of Mus musculus with 14 samples.

Results

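The 9 nuclear genes whose proteins keep and read the mitochondrial genome were followed through 14 RNA-seq libraries of regulatory T cells. They are Tfam, Tfb1m, Tfb2m, Polg, Polrmt, Spg7, Afg3l2, Lonp1 and Clpp. All 9 were found by symbol among the 14449 rows of the deposited table, and all 9 passed the filter on low values that left 12329 genes for testing (above 1 CPM, a read count scaled by library size, in at least 3 libraries). The genes were selected on the difference between Il1rn-/- and wild-type libraries in these same data. That difference is therefore given for each gene as an estimate with its standard error and without a test. For the 9 genes, p-values are given only for the difference between the sample sets and for whether the genotype difference itself differed between the sets. Counts of genes that passed for genotype are given over all genes tested, as background, and for genes outside the 9.

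The cells were CD4+Foxp3eGFP+ cells sorted from lymph node, that is T cells marked by a green reporter of Foxp3, the transcription factor that defines regulatory T cells. They came from BALB/c mice at postnatal day 35, either Il1rn-/- (7 libraries) or wild type (7 libraries). Il1rn encodes the secreted antagonist of the interleukin-1 receptor, so its loss removes a brake on interleukin-1 signalling in the whole animal, including cells other than the ones sorted. Every library title ends in the letter b or a, which the labels do not explain; these are called set b (4 Il1rn-/- and 4 wild-type libraries) and set a (3 Il1rn-/- and 3 wild-type libraries). Wild-type libraries carry the same Foxp3 reporter as the Il1rn-/- libraries. No row of the table carries the symbol Il1rn, so the genotype labels could not be checked against the deleted gene. Nothing in the labels says which libraries came from separate animals, so p-values measure only the spread between these libraries, which may be technical.

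The mitochondrial genome is a small circular DNA held in nucleoids in the organelle's matrix. TFAM packs this DNA and bends its promoters, TFB2M opens them, and the single-subunit RNA polymerase POLRMT then transcribes both strands and also makes the primers for replication. POLG is the catalytic subunit of the polymerase that copies the DNA, and TFB1M methylates the small ribosomal RNA that the genome encodes. Proteases set the lifetime of these proteins and of the products they make. LONP1 degrades unbound TFAM, and CLPP is the cutting subunit of the other matrix protease. Paraplegin (Spg7) and AFG3L2 are subunits of the m-AAA protease of the inner membrane. Regulatory T cells rely on mitochondrial respiration, and mice whose Foxp3+ cells lack Tfam develop inflammation.

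The libraries fell into 2 kinds. Reads assigned to Rn45s, the ribosomal RNA precursor, made up 20.3% to 40.0% of reads in 8 libraries, called deep here (5 Il1rn-/-, 3 wild type), and 59.6% to 65.8% in the other 6, called shallow (2 Il1rn-/-, 4 wild type). Reads outside Rn45s numbered 1654868 to 2805693 in the deep libraries and 384360 to 905988 in the shallow ones. All 6 libraries of set a were deep. In set b, Il1rn-/- 3-b and 4-b were deep, while Il1rn-/- 1-b and 2-b and all 4 wild-type libraries were shallow. Y-linked transcripts were present in Il1rn-/- 3-b and 4-b and in wild type 1-a and 2-a, and near 0 elsewhere. Within set b, the deep libraries were therefore also the ones with Y-linked transcripts. Regulatory T cell markers (Foxp3, Il2ra, Ctla4 and 6 others) summed to 2180 to 3511 CPM in Il1rn-/- libraries and 2193 to 3371 CPM in wild-type libraries. B cell markers summed to 14.5 to 41.7 CPM in Il1rn-/- libraries and 19.7 to 53.2 CPM in wild-type libraries. Markers of CD8 T and NK cells summed to 34.0 to 61.6 CPM in Il1rn-/- libraries and 27.1 to 76.1 CPM in wild-type libraries. Stromal and endothelial markers summed to 64.8 to 107 CPM in Il1rn-/- libraries and 66.2 to 106 CPM in wild-type libraries. Only 3 of the 5 listed for these cells were in the table, and 2 passed the filter on low values. This sum therefore rests on few genes and is not read as a larger share of such cells. Monocyte and macrophage markers summed to 2.15 to 24.1 CPM in Il1rn-/- libraries and 8.13 to 16.0 CPM in wild-type libraries. Dendritic cell markers reached at most 4.94 CPM in Il1rn-/- libraries and 3.84 CPM in wild-type libraries.

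Promoter windows from RefSeq (GRCm38.p6), 250 bases before to 50 after each start, were available for 8 of the 9 genes. They are shown for Tfam and Spg7, the pair with the most distinct values below, and for Polrmt and Tfb2m, which differed most cleanly between the library kinds. Capitals mark the letters CCGGAAG, the core bound by ETS factors such as GABPA (in Polrmt on the opposite strand, read CTTCCGG here), and GCGCATGCG, part of the motif of the factor NRF1 (in Tfb2m on the opposite strand, read CGCATGCGC here). Both factors are textbook regulators of nuclear genes for mitochondria. The Spg7 window held neither run of letters. The windows lie at chr10:71237995-71238294 (minus strand) for Tfam, chr8:123065258-123065557 (plus strand) for Spg7, chr10:79746532-79746831 (minus strand) for Polrmt and chr1:179546227-179546526 (minus strand) for Tfb2m.
Tfam: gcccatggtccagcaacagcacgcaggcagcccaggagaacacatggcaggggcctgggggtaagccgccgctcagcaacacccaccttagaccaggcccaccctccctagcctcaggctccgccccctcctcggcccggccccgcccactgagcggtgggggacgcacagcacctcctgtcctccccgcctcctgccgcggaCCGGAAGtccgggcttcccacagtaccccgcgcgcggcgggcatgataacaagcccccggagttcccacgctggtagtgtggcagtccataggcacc
Spg7: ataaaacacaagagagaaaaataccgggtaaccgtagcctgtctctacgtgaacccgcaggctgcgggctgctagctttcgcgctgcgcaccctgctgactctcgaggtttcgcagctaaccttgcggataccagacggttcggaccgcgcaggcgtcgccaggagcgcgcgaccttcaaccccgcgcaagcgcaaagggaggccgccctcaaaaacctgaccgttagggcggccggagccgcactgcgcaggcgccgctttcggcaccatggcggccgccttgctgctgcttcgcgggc
Polrmt: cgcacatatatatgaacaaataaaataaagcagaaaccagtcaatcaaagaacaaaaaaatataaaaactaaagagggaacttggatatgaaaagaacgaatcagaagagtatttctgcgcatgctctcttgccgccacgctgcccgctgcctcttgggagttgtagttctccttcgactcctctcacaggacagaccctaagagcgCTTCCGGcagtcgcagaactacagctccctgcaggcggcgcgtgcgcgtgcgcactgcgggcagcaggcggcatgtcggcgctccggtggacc
Tfb2m: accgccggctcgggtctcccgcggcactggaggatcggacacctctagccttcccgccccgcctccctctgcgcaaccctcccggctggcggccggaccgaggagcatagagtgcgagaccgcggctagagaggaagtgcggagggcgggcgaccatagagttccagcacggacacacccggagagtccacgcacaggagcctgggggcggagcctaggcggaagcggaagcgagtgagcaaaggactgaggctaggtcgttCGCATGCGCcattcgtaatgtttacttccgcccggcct
The ETS letters stood at bases -47 to -41 from the start in Tfam, -43 to -37 in Polrmt, -38 to -32 in Polg and 35 to 41 in Clpp. They were thus in 4 of the 8 windows, against 16.9% of the 13597 windows of genes in the table and 8.86% of all 32851 windows. The NRF1 letters stood at bases 12 to 20 of Tfb2m and in none of the other 7 windows, against 3.42% of windows of genes in the table and 1.75% of all windows. Both strands were searched, and the 2 runs of letters did not overlap in any window. These matches describe letters only and say nothing about binding.

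Per length, Clpp was the most abundant of the 9 transcripts and Tfb1m the least. Clpp averaged 23.9 CPM per kilobase of exon in Il1rn-/- libraries and 26.3 in wild-type libraries. Its lowest library lay above the highest of Tfam in each genotype, but its range was not clear of all the others. Its lowest Il1rn-/- library (15.2) lay below the highest of Afg3l2 (17.5). In wild type its lowest library (16.0) lay below the highest of Polrmt (16.6). In Il1rn-/- libraries the order below Clpp began with Tfam, at 11.5 CPM per kilobase in Il1rn-/- libraries and 9.81 in wild-type libraries. Afg3l2 (10.8 in Il1rn-/-, 9.91 in wild type), Polrmt (9.57 in Il1rn-/-, 9.53 in wild type), Lonp1 (6.71 in Il1rn-/-, 7.24 in wild type) and Polg (5.87 in Il1rn-/-, 4.87 in wild type) came next. Spg7 averaged 4.82 CPM per kilobase in Il1rn-/- libraries and 2.81 in wild-type libraries, Tfb2m 4.21 in Il1rn-/- and 5.48 in wild type, and Tfb1m 2.92 in Il1rn-/- and 2.26 in wild type. In wild-type libraries Afg3l2 stood above Tfam, and Tfb2m above Polg and Spg7. Below Clpp, the library ranges of neighbours in either order overlapped. Some of these transcripts share sequence with other genes, and how the authors assigned such reads is not given in the sources used here. Of the 32-base words of Tfb2m, 36.1% also occur in another annotated gene, nearly all in Gm1818, which itself had 0 to 5 reads per library. The share was 9.68% for Tfb1m, 7.34% for Polg, whose exons overlap Fanci on the opposite strand, 3.10% for Afg3l2, under 1% for Spg7 and Tfam, and 0 for Polrmt, Lonp1 and Clpp.

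**Figure D1:**
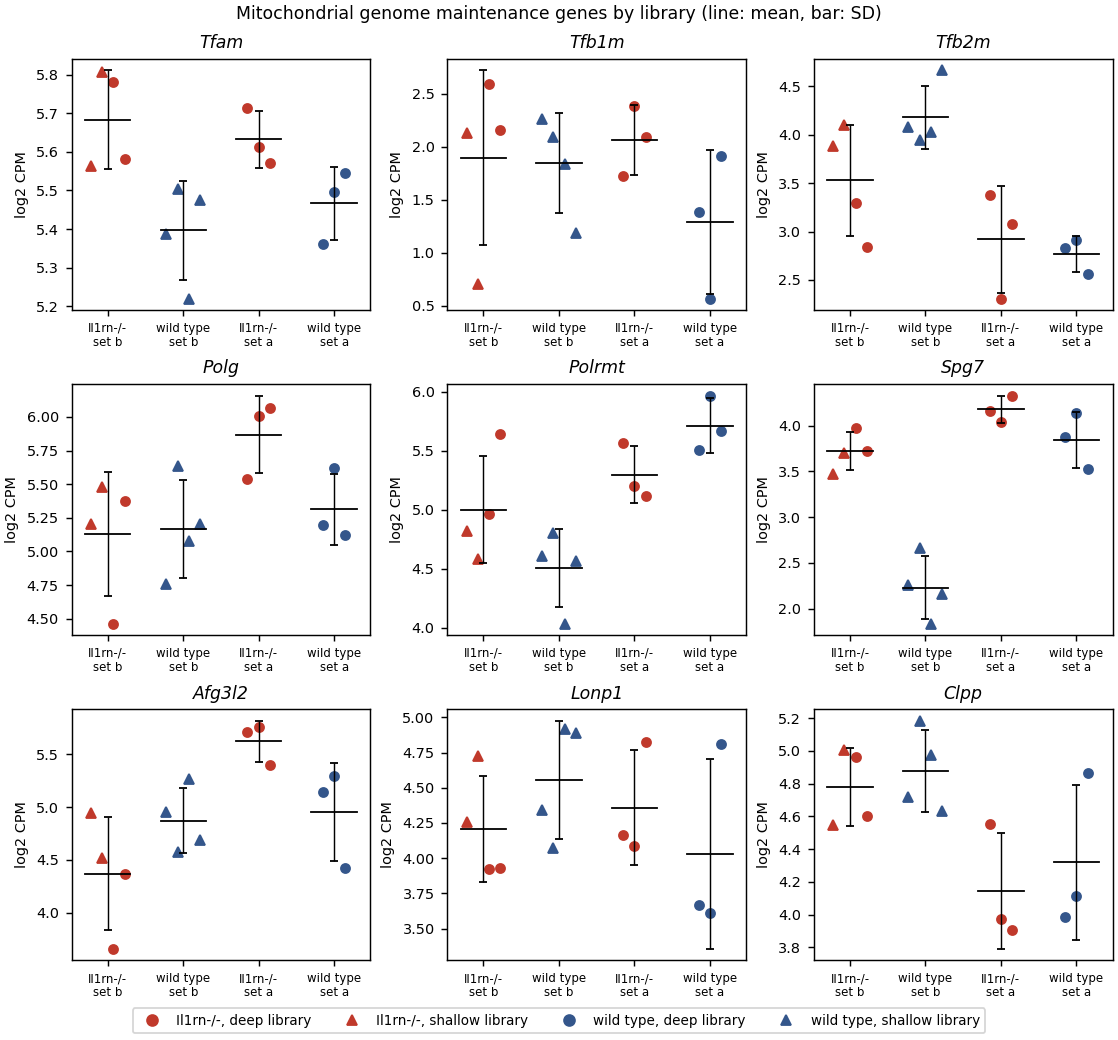
Deposited log2 CPM of each of the 9 genes in all 14 libraries, by genotype and set (4, 4, 3 and 3 libraries from left to right), with circles for deep and triangles for shallow libraries, a line at the group mean and a bar for the SD; each panel has its own vertical scale. Tfam spans 5.22 to 5.81 over all libraries, the 4 wild-type libraries of set b sit apart for Spg7, and the shallow libraries sit above the deep ones for Tfb2m and below them for Polrmt.

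Tfam, the DNA-packing factor, varied little and lay slightly higher in the Il1rn-/- libraries. Its log2 CPM in Il1rn-/- libraries of set b was 5.56, 5.81, 5.78 and 5.58, against 5.39, 5.50, 5.22 and 5.48 in wild-type libraries of set b (replicates 1 to 4 in each). In set a it was 5.71, 5.61 and 5.57 in Il1rn-/- libraries, against 5.36, 5.50 and 5.54 in wild-type libraries. Every Il1rn-/- library stood above every wild-type library, with the lowest at 5.56 (Il1rn-/- 1-b) and the highest wild-type library at 5.54 (wild type 3-a). These values rested on 77 to 244 Tfam reads per Il1rn-/- library and 32 to 265 per wild-type library. The means were 5.66 ± 0.10 in Il1rn-/- libraries and 5.43 ± 0.11 in wild-type libraries (SD, n = 7 each). With the set letter in the model, limma put the difference at 0.23 ± 0.12 log2 units (SE). In set b the difference was 0.29 ± 0.16 and in set a 0.17 ± 0.19 (SE).

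Tfam was the 1 gene of the 12329 tested (0.00811%) in which every Il1rn-/- library lay above every wild-type library. In the same sense 3 genes (0.0243%) lay below, none of them among the 9. The 9 genes were selected on this contrast, and how many genes would separate by chance was not tested. Nothing is therefore read from Tfam being the 1. The separation of Tfam ended when each library was centred on its median (lowest Il1rn-/- library 1.89, highest wild-type library 1.94) or scaled without Rn45s and the mitochondrial ribosomal RNAs (lowest Il1rn-/- library 6.51, highest wild-type library 6.74). The difference itself was 0.18 among the 8 deep libraries and 0.29 among the 6 shallow ones. Tfam values were also even, with an SD of 0.16 over the 14 libraries. Of all tested genes, not matched on level, 0.37% had a smaller SD. The other 8 genes had SDs of 0.42 (Clpp) to 0.83 (Spg7). Poisson intervals for Tfam ran from 21.9 to 45.2 reads in wild type 3-b (32 reads). In wild type 3-a (265 reads) they ran from 234 to 299. On the log2 scale the first is wider than the whole Tfam range, 5.22 to 5.81, and the second is narrower. Both are wider than the gap between the genotypes, 5.54 to 5.56. The evenness is therefore not read as a property of the gene.

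Spg7 had the largest genotype difference of the 9 genes, and most of it came from set b. In set b, Spg7 stood at 3.47, 3.70, 3.98 and 3.72 log2 CPM in Il1rn-/- libraries (18, 25, 50 and 39 reads), against 2.26, 2.67, 1.84 and 2.16 in wild-type libraries (7, 9, 3 and 8 reads). No wild-type library of set b reached the lowest Il1rn-/- library of that set. In set a, it stood at 4.16, 4.04 and 4.33 in Il1rn-/- libraries (83, 64 and 91 reads), against 3.88, 4.14 and 3.52 in wild-type libraries (52, 75 and 65 reads), and these groups overlapped. Wild type 3-b, with 3 reads, has a 95% Poisson interval of 0.62 to 8.77 reads, which covers counting error only. Over all libraries the means were 3.92 ± 0.30 in Il1rn-/- libraries and 2.92 ± 0.91 in wild-type libraries (SD, n = 7 each). The fitted difference was 0.99 ± 0.25 log2 units (SE), with 1.49 ± 0.29 in set b and 0.33 ± 0.33 in set a.

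**Figure D2:**
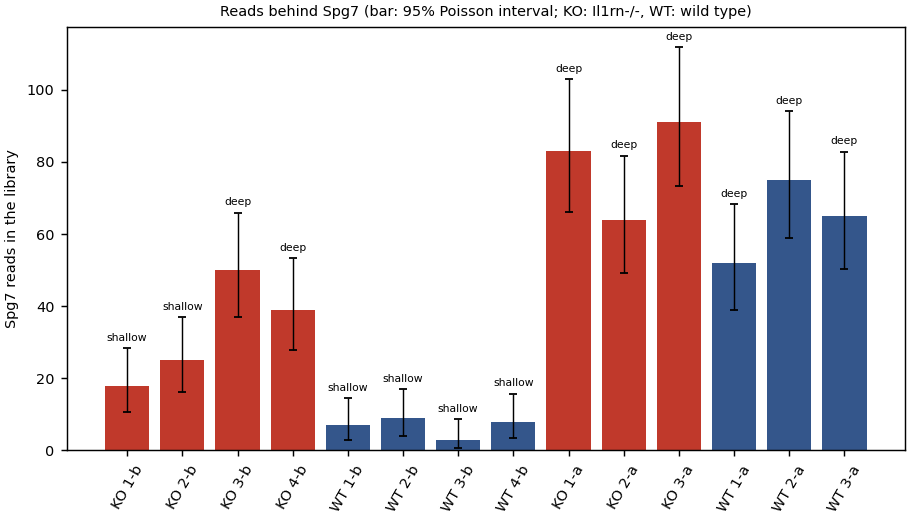
Spg7 reads recovered in each library (vertical axis, from 0), with 95% Poisson intervals as bars and the library kind written above; Il1rn-/- libraries are labelled KO and wild-type libraries WT. The 4 wild-type libraries of set b hold 3 to 9 reads each, and the other 10 libraries hold 18 to 91.

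The kind of library moved with this result, because set b held 4 shallow wild-type libraries but 2 shallow and 2 deep Il1rn-/- libraries. Among the 8 deep libraries Spg7 differed by 0.20 ± 0.20 between Il1rn-/- and wild type (SE), with Il1rn-/- libraries at 3.72 to 4.33 and wild-type libraries at 3.52 to 4.14. Among the 6 shallow libraries it differed by 1.36 ± 0.36, with Il1rn-/- 1-b and 2-b at 3.47 and 3.70 and the 4 wild-type libraries at 1.84 to 2.67. With the library kind in the model in place of the set letter the difference was 0.68. In set b the Il1rn-/- libraries also stayed above the wild-type libraries under both other scalings. Deep libraries held more Spg7 than shallow ones, 3.97 ± 0.26 against 2.68 ± 0.75 (SD, n = 8 and 6), with overlap.

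Afg3l2, a partner of Spg7 in the m-AAA protease, showed no such pattern. It stood at 5.71, 5.76 and 5.40 log2 CPM in Il1rn-/- libraries of set a, against 5.14, 5.30 and 4.43 in wild-type libraries of set a. In set b it stood at 4.94, 4.51, 3.66 and 4.37 in Il1rn-/- libraries, against 4.96, 4.57, 5.26 and 4.69 in wild-type libraries. The Il1rn-/- libraries lay above the wild-type libraries throughout set a, whereas in set b the groups overlapped with the lower values in Il1rn-/- libraries. The difference was 0.67 ± 0.31 in set a and -0.50 ± 0.27 in set b, which left -0.00057 ± 0.24 over both (SE). Because their exon lengths are alike in the basic GENCODE annotation (3168 bases for Spg7, 3094 for Afg3l2), these 2 transcripts could be compared within each library. Over all annotated transcripts Afg3l2 has more distinct 32-base words (9842) than Spg7 (4822), so their relative level depends on the annotation used. The related protease gene Afg3l1 was not part of this comparison. It averaged 4.48 ± 0.28 log2 CPM in Il1rn-/- libraries and 4.36 ± 0.34 in wild-type libraries (SD). Spg7 minus Afg3l2 averaged -0.65 ± 0.74 log2 units in Il1rn-/- libraries of set b and -2.64 ± 0.63 in wild-type libraries of set b (SD, n = 4 each). In set a it averaged -1.45 ± 0.33 in Il1rn-/- libraries and -1.11 ± 0.18 in wild-type libraries (SD, n = 3 each), so the order of the genotypes was the opposite there. By library kind, Spg7 minus Afg3l2 averaged -0.998 ± 0.631 in deep and -2.14 ± 0.938 in shallow libraries (SD, n = 8 and 6). In set b, the deep Il1rn-/- 3-b and 4-b stood at 0.32 and -0.642, and the shallow Il1rn-/- 1-b and 2-b at -1.467 and -0.812. The wild-type libraries of set b, all shallow, stood at -3.429 to -1.904. How far library kind enters the set b gap was not tested.

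For the matrix proteases the genotype difference was smaller than its error over both sets. Lonp1, which degrades TFAM, averaged 4.27 ± 0.37 log2 CPM in Il1rn-/- libraries and 4.33 ± 0.56 in wild-type libraries (SD, n = 7 each), a fitted difference of -0.06 ± 0.24 (SE). Its lowest, median and highest libraries were 3.92, 4.16 and 4.83 in Il1rn-/-, against 3.61, 4.34 and 4.92 in wild type. That value averages set differences of opposite sign, -0.35 ± 0.31 in set b and 0.33 ± 0.36 in set a. Clpp averaged 4.51 ± 0.43 in Il1rn-/- libraries and 4.64 ± 0.44 in wild-type libraries, a difference of -0.13 ± 0.18 (SE), with libraries at 3.91 to 5.01 in Il1rn-/- and 3.98 to 5.18 in wild type. Its difference was -0.10 ± 0.25 in set b and -0.18 ± 0.29 in set a. The genotypes overlapped for both genes in each set.

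Among the transcription and replication enzymes, no gene other than Tfam separated the genotypes in either set. Polg averaged 5.45 ± 0.54 log2 CPM in Il1rn-/- libraries and 5.23 ± 0.31 in wild-type libraries, a difference of 0.22 ± 0.19 (SE). Its libraries spanned 4.46 to 6.06 in Il1rn-/- and 4.76 to 5.63 in wild type. Polrmt averaged 5.13 ± 0.38 in Il1rn-/- libraries and 5.02 ± 0.70 in wild-type libraries (SD, n = 7 each). Its fitted difference was 0.11 ± 0.21, and it turned to -0.16 with the library kind in place of the letter and to -0.42 among deep libraries. Tfb2m averaged 3.27 ± 0.61 in Il1rn-/- libraries and 3.57 ± 0.80 in wild-type libraries, a difference of -0.31 ± 0.27, which was 0.21 among deep libraries. Tfb1m rested on 3 to 20 reads per Il1rn-/- library and 3 to 21 per wild-type library, and its difference of 0.36 ± 0.39 was -0.43 among shallow libraries. The set values of 3 of these genes had opposite signs. Polg differed by -0.04 ± 0.25 in set b and 0.56 ± 0.28 in set a, Polrmt by 0.50 ± 0.24 in set b and -0.42 ± 0.28 in set a, and Tfb2m by -0.65 ± 0.34 in set b and 0.15 ± 0.39 in set a.

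**Figure D3:**
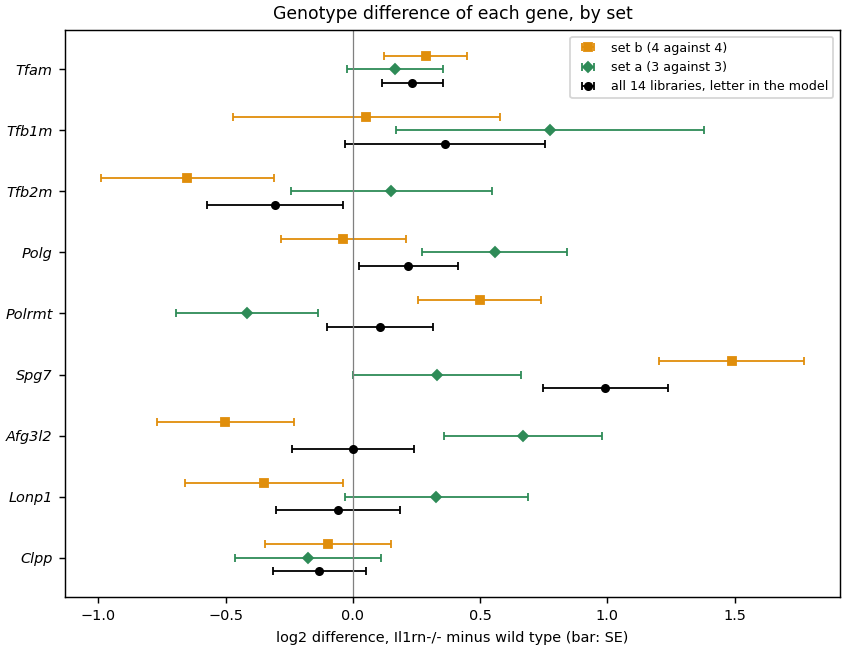
Fitted log2 difference of each gene, Il1rn-/- minus wild type, with its SE as a bar, for set b, set a and all 14 libraries with the letter in the model. The Spg7 estimates are 1.49, 0.33 and 0.99 in that order, the Tfam estimates 0.29, 0.17 and 0.23, and for Polg, Polrmt, Afg3l2, Lonp1 and Tfb2m sets b and a lie on opposite sides of 0.

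Over the 9 genes the genotype difference was positive in 5 and negative in 4, with a median of 0.11, beside a median of 0.04 over all 12329 genes, of which 6815 were positive. None of the genes tested (0%) passed an adjusted p of 0.05 for genotype by limma, and limma voom on the recovered reads also called 0. Unadjusted p-values under 0.05 numbered 679 by limma and 733 by voom. In set a, 2 of the 9 genes (Tfam and Afg3l2) had every Il1rn-/- library above every wild-type library and 0 had every one below, where 4.36% and 3.61% of all tested genes did so. In set b, 2 (Tfam and Spg7) lay above and 0 below, where 2.36% and 1.92% of all tested genes did so. The genes were selected on this contrast, so nothing is read from these counts. In sorted bulk samples, fewer cells with a transcript and less of it per cell cannot be told apart.

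Whether the genotype difference itself differed between the sets was tested for every gene. The largest such differences among the 9, set b minus set a, were 1.16 ± 0.44 for Spg7, 0.92 ± 0.37 for Polrmt and -1.17 ± 0.41 for Afg3l2 (SE). None passed, each with an adjusted p of 0.610 by limma, and 0 of the 12329 genes did (0%). Unadjusted p-values under 0.05 numbered 968 by limma, and voom called 0 with 1271 unadjusted. For Tfam the difference between sets was 0.12 ± 0.25 (adjusted p 0.918, limma). The remaining genes lay between -0.80 ± 0.52 for Tfb2m and 0.08 ± 0.38 for Clpp.

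Set b and set a, by contrast, differed in 4 of the 9 genes by limma with genotype in the model. Tfb2m, the promoter-opening factor, was higher in set b by 1.01 ± 0.27 (SE, adjusted p 0.0146), at 3.86 ± 0.55 log2 CPM in set b and 2.84 ± 0.38 in set a (SD, n = 8 and 6). Clpp was higher in set b by 0.60 ± 0.18 (adjusted p 0.0309, limma), at 4.83 ± 0.23 in set b and 4.23 ± 0.39 in set a. Polrmt was lower in set b, with a difference of -0.75 ± 0.21 (adjusted p 0.0180, limma), at 4.75 ± 0.45 in set b and 5.50 ± 0.31 in set a. Spg7 was lower in set b, with a difference of -1.04 ± 0.25 (adjusted p 0.00901, limma), at 2.98 ± 0.84 in set b and 4.01 ± 0.28 in set a. So 2 of the 9 were higher and 2 lower, where 8.48% of all tested genes were called higher and 11% lower in set b. The polymerase and its partner factor went in opposite directions between the sets. For all 9 genes the libraries of the 2 sets overlapped.

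Tfam did not differ between the sets beyond its error, at -0.01 ± 0.12 (95% interval -0.26 to 0.24, adjusted p 0.963, limma). Afg3l2 differed by -0.67 ± 0.24 (adjusted p 0.0599, limma) and Polg by -0.44 ± 0.20 (adjusted p 0.119), and neither passed. Lonp1 (0.19 ± 0.25) and Tfb1m (0.19 ± 0.40) did not pass either. The Clpp call was lost on leaving out any 1 of Il1rn-/- 2-a, 3-a and 2-b and wild type 1-a, 2-a and 2-b (adjusted p 0.0613 to 0.0809, limma) and on scaling without Rn45s and the mitochondrial RNAs (0.0537). The Polrmt call was lost without wild type 2-a (0.0609).

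The set difference ran together with the library kind. Every deep library lay below every shallow one for Tfb2m, with deep libraries at 2.31 to 3.38 log2 CPM (mean 2.90 ± 0.36 SD, n = 8) and shallow libraries at 3.89 to 4.66 (4.12 ± 0.28, n = 6). For Polrmt every deep library lay above, with deep libraries at 4.96 to 5.97 (5.45 ± 0.33) and shallow libraries at 4.03 to 4.82 (4.57 ± 0.29). These were 1 gene below and 1 above of the 9, where 6.56% of all tested genes lay wholly below and 8.35% wholly above. Il1rn-/- 3-b and 4-b, the deep libraries of set b, had 3.29 and 2.84 for Tfb2m, within or beside the set a range of 2.31 to 3.38. With the library kind added as a further term, the set difference was 0.23 ± 0.36 for Tfb2m (adjusted p 0.941, limma), -0.14 ± 0.27 for Polrmt (0.959), -0.57 ± 0.37 for Spg7 (0.735) and 0.62 ± 0.29 for Clpp (0.578). None of these calls remained. Il1rn-/- 3-b and 4-b are the only deep libraries of set b, and no library of set a was shallow, so these terms are separated by few libraries. The same libraries are the only ones of set b with Y-linked transcripts. Within set b, library kind and Y-linked transcripts therefore cannot be told apart.

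**Figure D4:**
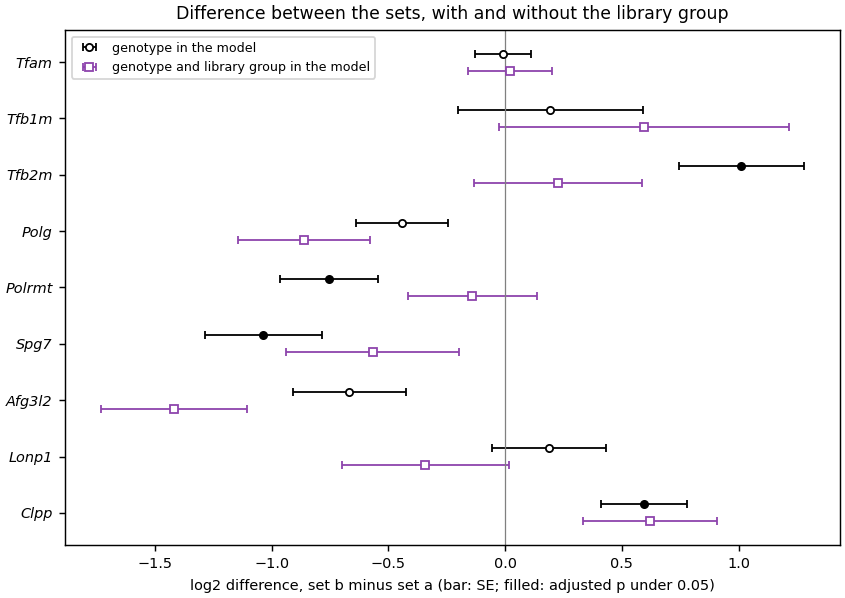
Fitted log2 difference of each gene, set b minus set a, with its SE, from the model with genotype (black circles) and from the model with genotype and library kind (purple squares); filled symbols have an adjusted p under 0.05 by limma. Filled symbols are Tfb2m, Polrmt, Spg7 and Clpp in the first model and none in the second.

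What these factors act on could be seen for 2 of the 15 mitochondrially encoded RNAs listed, the ribosomal RNAs, the ones the table holds. The large one, mt-Rnr2, took 9.01% to 16.2% of reads outside Rn45s in deep Il1rn-/- libraries and 8.68% to 11.2% in deep wild-type libraries. In shallow libraries it took 3.13% and 3.80% in Il1rn-/- and 2.82% to 4.01% in wild type. On the log2 CPM scale it averaged 15.3 ± 1.03 in Il1rn-/- libraries and 14.7 ± 0.97 in wild-type libraries (SD, n = 7 each), with every deep library above every shallow one, as for Polrmt. The small one, mt-Rnr1, the RNA that TFB1M methylates, averaged 9.84 ± 0.89 in Il1rn-/- libraries and 9.43 ± 0.47 in wild-type libraries. Neither passed for genotype, set or the difference between sets (limma).

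The wider pathway was read from 5 lists holding 108 genes, of which 106 were tested. For genotype 61 were positive and 45 negative, with a median of 0.05, and 0 passed by limma. Among 25 genes of mitochondrial DNA replication and nucleotide supply the median was 0.14, and the most abundant were Samhd1, which breaks down deoxynucleotides (9.29 ± 0.50 in Il1rn-/- libraries, 8.81 ± 0.35 in wild-type libraries, difference 0.48 ± 0.21), Slc25a4 (-0.12 ± 0.14), Top2b (0.21 ± 0.19) and Fen1 (-0.0025 ± 0.20). Among 28 genes of mitochondrial transcription and RNA processing the median was 0.10. There the RNA-stabilising factor Lrpprc differed by 0.37 ± 0.24, the exonuclease Rexo2 by -0.17 ± 0.21, and Hsd17b10 and Trmt10c, which work together in the RNase that frees transfer RNAs, by -0.23 ± 0.19 and 0.21 ± 0.20. Among 26 proteases and chaperones the median was 0.01, with the inner-membrane protease Yme1l1 at 0.28 ± 0.16, the chaperones Hspa9 at 0.24 ± 0.16 and Hspd1 at -0.36 ± 0.18, and the scaffold Phb2 at -0.08 ± 0.14 (SE throughout). The 15 tested regulators of biogenesis had a median of 0.12, with Myc at -0.12 ± 0.15, Nrf1 at 0.16 ± 0.16, Creb1 at -0.05 ± 0.20 and Gabpb1, a partner of GABPA, at 0.12 ± 0.15. The 12 genes of fusion and fission had a median of -0.04, with Fis1 at -0.30 ± 0.17, Mff at 0.30 ± 0.19, Letm1 at -0.04 ± 0.20 and the fusion factor Opa1 at 0.11 ± 0.16. These fits had no term for library kind. Every deep library lay above every shallow one for Samhd1, Hspa9, Nrf1 and Opa1 (8.35% of all tested genes did so). For Hspd1 every deep library lay below (6.56% did so). Deep libraries were 5 Il1rn-/- and 3 wild type, and shallow ones 2 and 4. How far library kind enters these genotype values was not tested.

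Between the sets, 7 pathway genes were higher in set b (6.60% of the 106) and 3 lower (2.83%) by limma, where 8.48% of all tested genes were higher and 11% lower, with a median of -0.08 over the lists and -0.11 over all tested genes. Of the 7, 4 were proteases and chaperones: the chaperonin pair Hspe1 (1.39 ± 0.21, adjusted p 0.000917) and Hspd1 (0.64 ± 0.18, adjusted p 0.0201), the scaffold Phb (1.60 ± 0.28, adjusted p 0.00154) and the signal peptidase Immp1l (1.11 ± 0.27, adjusted p 0.00904). The other 3 were Hsd17b10 (0.89 ± 0.19), Myc (0.84 ± 0.15) and Fis1 (0.63 ± 0.18). The 3 that were lower were Polg2, the accessory subunit of the polymerase whose catalytic subunit is POLG (-0.99 ± 0.32, adjusted p 0.0386, limma), Mterf1a (-3.19 ± 0.79) and Gabpb2 (-0.56 ± 0.17). Mterf1a averaged -3.07 log2 CPM in shallow libraries, near the lowest value of the table, -3.58, which stands for no reads. The size of its difference is therefore not reliable. In all 10, the mean of the shallow libraries stood on the same side of the deep ones as set b did of set a. With the library kind as a further term none of the 10 passed (adjusted p 0.279 to 0.992, limma). The set difference of Myc was then 0.70 ± 0.22, that of Hspe1 0.87 ± 0.29 and that of Polg2 0.14 ± 0.39, opposite in sign to the value above. For the difference of the genotype effect between sets, 0 of the 106 passed.

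The genes whose profiles over the 14 libraries lay closest to that of Tfam, among 8512 compared, were Nop58 (root mean square distance 0.115 log2 units after centring each profile), Os9 (0.120) and Dnajc9 (0.128). For Spg7, among 2292 compared, they were Tmem161b (0.279), Casp1 (0.337) and Ikbkb (0.374). Casp1 encodes the inflammatory caspase that matures interleukin-1 beta. These genes were picked for nearness over the same libraries, so the choice itself fixes genotype differences like those of Tfam and Spg7, and their own are not given. Libraries that share a depth and a share of Rn45s enter each of these distances together.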

How the data were processed

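RNA of 14 libraries was extracted with a Qiagen RNeasy Micro kit and made into Smart-Seq2 libraries, a method for low input, per the labels' protocols. Quantification used Cuffquant 2.2.1, per the labels' protocols. Cuffnorm, Cufflinks 2.2.1, TopHat2 2.0.10 and BWA are listed, without roles, in the submitters' processing notes. Build, annotation, strand and shared-read handling were not given in the sources used here. The authors deposited log2 CPM for 14449 genes; the values show scaling between libraries and an added prior count. Whole reads were recovered from their steps (100% of values within 0.001 of a whole number), which gave 952021 to 3756559 reads per library.

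The log2 CPM of 12329 genes were fitted with limma-trend (limma version 3.58.1 under R 4.3.3), with genotype and set letter as terms. A model with 4 groups gave the values within sets and their difference. Tests were two-sided, with Benjamini-Hochberg adjustment over all genes at 0.05. Steps were tested on simulated data without a set or library-kind difference. There 89 of 200 changed genes were recovered at a log2 fold of 1, and 200 at a log2 fold of 2. That no gene passed for genotype is therefore no sign that changes of the smaller size were absent. The changed genes were drawn from the more abundant ones, and every gene had the same simulated dispersion. The recovery therefore does not cover genes as low as Tfb1m, Spg7 and Tfb2m (means 1.79, 3.42 and 3.42 log2 CPM). Nor does it cover the real spread between libraries, for either size of change. Exon lengths came from the basic annotation of GENCODE M21 and shared words from all its transcripts. The order of the genes per length holds for that basic annotation. Python 3.11.15 and numpy 2.4.6 were used for the rest. The members and lists were chosen with earlier results of these data known. From each pathway list the 4 genes of highest mean level are named, with every gene that passed between the sets. Library kind was set from Rn45s above or below 50% of reads. Reads carried no molecular identifiers, so read intervals cover counting error only.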

Additional observations from a re-analysis of the deposited data

Results flagged for a closer look

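The small mitochondrial ribosomal RNA, mt-Rnr1, stood apart in Il1rn-/- 3-b among the 7 Il1rn-/- libraries, at 11.7 log2 CPM (10805 reads, 0.468% of reads outside Rn45s). The gap to the nearest library was 0.681 of the range of that genotype, above the critical value of 0.568 for 7 samples. The large ribosomal RNA, mt-Rnr2, was also highest in that library, at 16.8 log2 CPM. Of 44 groups checked in this way this was the 1 with such a sample, and chance gives about 1 in 20 groups. A count of 1 in 44 is thus no more than chance gives. The groups also overlap, since each genotype was checked over both sets and again in set b alone. Nothing is therefore read from this library standing apart.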

How the results depend on the processing

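Over 27 alternatives the Tfam difference between Il1rn-/- and wild type kept its sign, at 0.16 to 0.29, as did those of Spg7, at 0.20 to 1.36, and Polg, at 0.10 to 0.36. The signs of Tfb1m, Tfb2m, Polrmt, Afg3l2, Lonp1 and Clpp turned under at least 1. The 9 genes were selected on this contrast, and 14 of the alternatives only leave out 1 library. Nothing is therefore read from a kept sign. For genotype, 2 genes passed among the deep libraries alone (1 higher, 1 lower) and 13 among the shallow libraries alone (all higher), against 0 in the main model and 0 without each library in turn. Between set b and set a, 2408 genes passed, 4091 with library weights and 12 with the library kind as a further term, a choice made after seeing the data. Without each library in turn the number was 1355 to 3376, lowest without wild type 2-a (1355) and wild type 1-a (1570). For the difference between the sets in the genotype effect, 0 passed under each of 22 alternatives. Afg3l2 passed between the sets with voom (adjusted p 0.037), with library weights (0.0164), without wild type 3-a (0.0201) and without wild type 3-b (0.0361). Replicate numbers did not pair libraries: deviations of same-numbered libraries correlated at -0.151 to 0.000517. With a replicate block 0 genes passed for genotype, 633 at an unadjusted p under 0.05, and Spg7 differed by 0.99 ± 0.29. Tfb1m fell below the filter at a mean log2 CPM of 2. Low reads limit Tfb1m everywhere and Spg7 in the wild-type libraries of set b.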
